A study of Homo sapiens with 24 samples.

Results

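Interferon-stimulated genes are genes that cells transcribe more when interferon reaches its receptors. A list of 37 of them was looked up by symbol, and each was found by Ensembl ID among the 65180 gene IDs of the count table. The libraries are poly(A) RNA-seq of HK-2 cells, a human proximal tubular epithelial line immortalised with papillomavirus genes, and there are 24 of them in 6 groups. All cultures were kept without serum overnight and then incubated for 24 h. In normoxia, 5 libraries came from cells given TGF-β1 (2 ng/mL) together with BAY 60-2770, 5 from cells given TGF-β1 alone, 3 from cells given BAY 60-2770 alone and 5 from cells given the solvents. In hypoxia at 0.3% oxygen, 3 libraries came from cells given BAY 60-2770 and 3 from cells given solvent. BAY 60-2770, called BAY from here on, is an activator of soluble guanylate cyclase, the nitric oxide receptor that produces the messenger cyclic GMP. The labels print its dose as 1 mM while giving the solvent as 0.0001% DMSO, so the dose is doubtful and the BAY effects belong to an uncertain dose. The labels name no added interferon or virus. The replicates are labelled biological, with no word on how they were kept apart, so each p-value speaks only of the spread among these libraries of 1 cell line.

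Type I interferons bind a receptor made of IFNAR1 and IFNAR2, whose kinases JAK1 and TYK2 phosphorylate transcription factors of the STAT family. STAT2 and IRF9 belong to the complex ISGF3, which binds the interferon-stimulated response element in the promoters of interferon-stimulated genes. IRF1 and other factors of its family can bind the same element, and many of the genes keep a basal level in epithelial cells without added interferon. Their products sense viral RNA, break it down, block its translation, attach the ubiquitin-like protein ISG15 to other proteins, or hold viruses at membranes.

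Totals ran from 78862528 to 105571250 estimated counts per library. The summed level of 14 proximal tubule and epithelial markers lay between 2477 and 3280 CPM (counts per 1000000, scaled over all 24 libraries) in every library, with KRT8, KRT18, EPCAM, PAX8 and GGT1 expressed, while the endocytic receptor LRP2 and the brush border enzyme ANPEP stayed under 1 CPM in all 6 group means. The leukocyte-defining genes CD3E, CLEC4C and LILRA4 were listed at 0 in every library, and PTPRC and MS4A1 had group means of at most 0.0364 and 0.00235 CPM. Other leukocyte markers were higher and differed between groups. Group means of CD14 ran from 0.485 CPM in hypoxia with BAY to 1.29 in normoxia with solvent. Those of ITGAM ran from 0.177 CPM with TGF-β1 and BAY to 1.36 in hypoxia with solvent. Those of CD79A ran from 0.257 CPM in hypoxia with BAY to 1.02 with TGF-β1 alone. The sum over 10 leukocyte markers moved with the groups, mostly through CSF1R, the 1 marker of the 10 over 1 CPM on average over the libraries. It was 59.5 to 62.9 CPM with TGF-β1 and BAY, 55.4 to 61.0 with TGF-β1 alone, 46.8 to 55.8 in hypoxia with BAY, 60.4 to 69.2 in hypoxia with solvent, 10.1 to 11.0 in normoxia with BAY and 15.7 to 18.7 in normoxia with solvent. Of 4 plasmacytoid dendritic cell markers, TCF4, which epithelial cells can also express, made up most of a sum of 18.9 to 21.5 CPM with TGF-β1 and BAY, 20.6 to 23.3 with TGF-β1 alone, 4.85 to 5.20 in hypoxia with BAY, 6.49 to 8.11 in hypoxia with solvent, 5.85 to 6.55 in normoxia with BAY and 8.66 to 9.33 in normoxia with solvent. Another of them, IL3RA, averaged 0.149 CPM in hypoxia with BAY and 1.05 CPM in hypoxia with solvent, its highest group mean. The 4 endothelial markers summed to at most 0.174 CPM. Fibroblast markers, led by COL1A1 and LUM, summed to 262 to 284 CPM with TGF-β1 and BAY, 286 to 300 with TGF-β1 alone, 223 to 242 in hypoxia with BAY, 124 to 132 in hypoxia with solvent, 163 to 170 in normoxia with BAY and 110 to 134 in normoxia with solvent, and the part of these marker lists in the results was not tested. The 3 normoxic groups of 5 libraries each fell into a pair of library subsets on 10945 genes outside the lists. Subset 1 holds replicates 1, 2 and 5 of the solvent group and replicates 1 and 2 of each TGF-β1 group, and subset 2 holds the others. The difference between subsets correlated from 0.672 to 0.786 across genes between the groups, and what separates them is not given in the labels.

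The promoters show how the response element is spread over the members. RefSeq windows of 300 bases, from 250 before to 50 after the start of transcription (GRCh38.p14), were at hand for 31 of the 37 members. The element was searched as GAAANNGAAA, where N is any base, on both strands, and overlapping matches were counted. It stood in 22 of the 31 members (71.0%) and in 1195 of 27305 genes with a window (4.38%). This is a description of the letters, not of binding. The 6 stretches below are those of the 6 members with the largest fold changes among the ones described library by library that hold a match before the start, and are shown 5′ to 3′ on the strand of the gene with the matches in capitals. A match on the other strand appears as the reverse complement.
EPSTI1, chr13:42992252-42992321, minus strand: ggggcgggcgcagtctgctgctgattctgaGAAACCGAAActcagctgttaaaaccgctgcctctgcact
IFIT3, chr10:89327811-89327914, plus strand: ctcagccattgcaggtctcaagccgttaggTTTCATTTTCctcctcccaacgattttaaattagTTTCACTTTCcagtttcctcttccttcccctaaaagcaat
IFITM1, chr11:313970-314039, plus strand: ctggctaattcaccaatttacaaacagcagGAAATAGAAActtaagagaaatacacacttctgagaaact
IFIH1, chr2:162318685-162318873, minus strand: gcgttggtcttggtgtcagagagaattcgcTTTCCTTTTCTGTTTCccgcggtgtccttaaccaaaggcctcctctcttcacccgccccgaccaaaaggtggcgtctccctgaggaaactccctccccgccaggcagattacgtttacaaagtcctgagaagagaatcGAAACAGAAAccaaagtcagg
OAS3, chr12:112938301-112938473, plus strand: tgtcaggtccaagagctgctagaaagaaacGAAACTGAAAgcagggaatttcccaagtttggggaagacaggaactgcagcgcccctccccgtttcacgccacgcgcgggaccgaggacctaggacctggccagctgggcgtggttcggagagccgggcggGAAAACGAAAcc
DDX60, chr4:168318766-168318870, minus strand: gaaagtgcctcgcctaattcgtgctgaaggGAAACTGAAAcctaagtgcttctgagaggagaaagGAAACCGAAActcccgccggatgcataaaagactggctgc
Each stretch runs from 30 bases before its first match to 30 bases past its last one, or to the start of transcription where that comes earlier. IFIH1 held a pair of overlapping matches on the other strand and 1 match on its own strand next to the start. OAS3 and DDX60 each held a pair on the strand of the gene, IFIT3 a pair on the other strand, and EPSTI1 and IFITM1 1 match each on the strand of the gene. IFITM1 held a further match across its start, and another window of IFIT3 held matches centred at -89 and -46 from its start. These matches are not printed. The 3 windows of CMPK2 held no match.

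**Figure D1:**
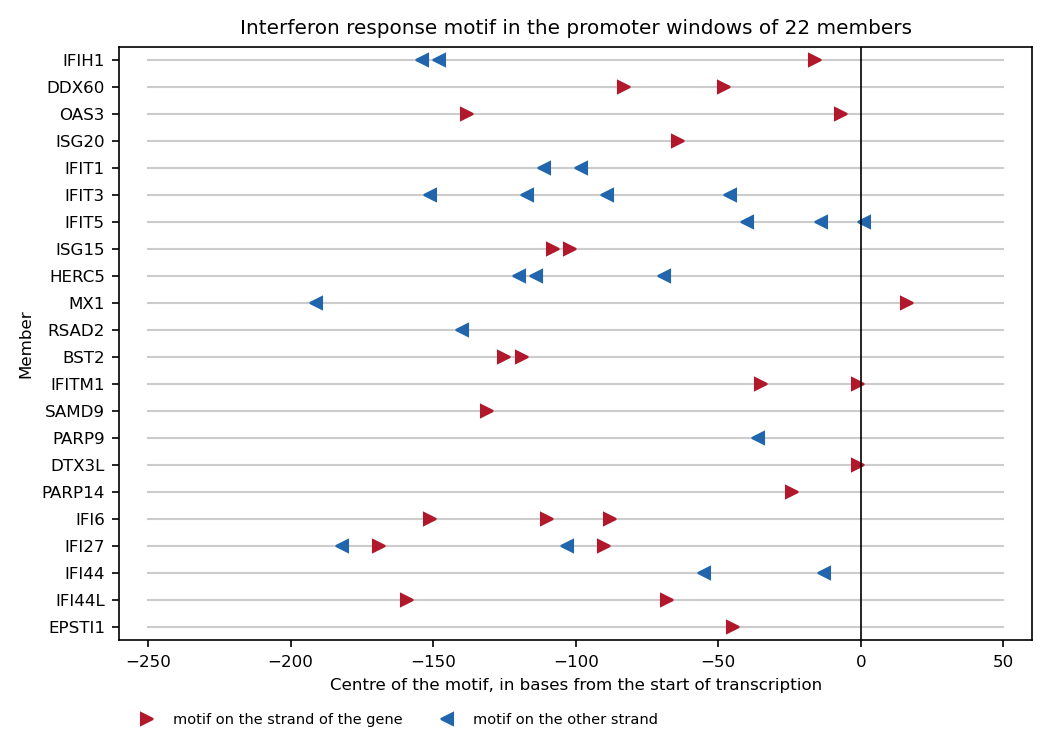
Position of the response element in the promoter windows of the 22 members that hold it. The x axis gives the centre of each match in bases from the start of transcription, and right- and left-pointing triangles are matches on the strand of the gene and on the other strand. Members with several start sites share a row. Most matches lie before the start, within the 200 bases next to it.

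In normoxia with solvent the members spanned several orders of magnitude. Per kilobase of exon, BST2, whose product tethers budding virus to the cell surface, stood highest at 115 CPM per kb, ahead of IFIT3 at 33.1, IFITM1 at 17.8, IFIT2 at 16.9 and IFI44L at 15.9 CPM per kb. MX1, the dynamin-like GTPase that blocks influenza virus, stood at 0.278 and the exonuclease gene ISG20 at 0.257 CPM per kb. IRF7, OAS2, MX2, IFI27 and XAF1 had group means of at most 0.0888 CPM and were left out by the filter on low counts, so 32 of the 37 members were tested. Their levels say only that these IDs were listed near 0, since 6261 IDs without a symbol held 4.36% of the counts, and HLA-C and HLA-E, which most human cells express, were listed at 0.0660 and 0.0284 CPM in normoxia with solvent. The summed CPM of all 37 members was 672 ± 27.2 with TGF-β1 and BAY and 801 ± 56.8 with TGF-β1 alone (SD, n = 5 each). In hypoxia it was 688 ± 7.86 with BAY and 870 ± 14.0 with solvent (SD, n = 3 each), and in normoxia 906 ± 15.0 with BAY (SD, n = 3) and 1184 ± 25.1 with solvent (SD, n = 5). No treated library reached the lowest normoxic solvent library, at 1158 CPM. In these bulk libraries fewer cells that express a gene and less RNA per cell cannot be told apart.

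**Figure D2:**
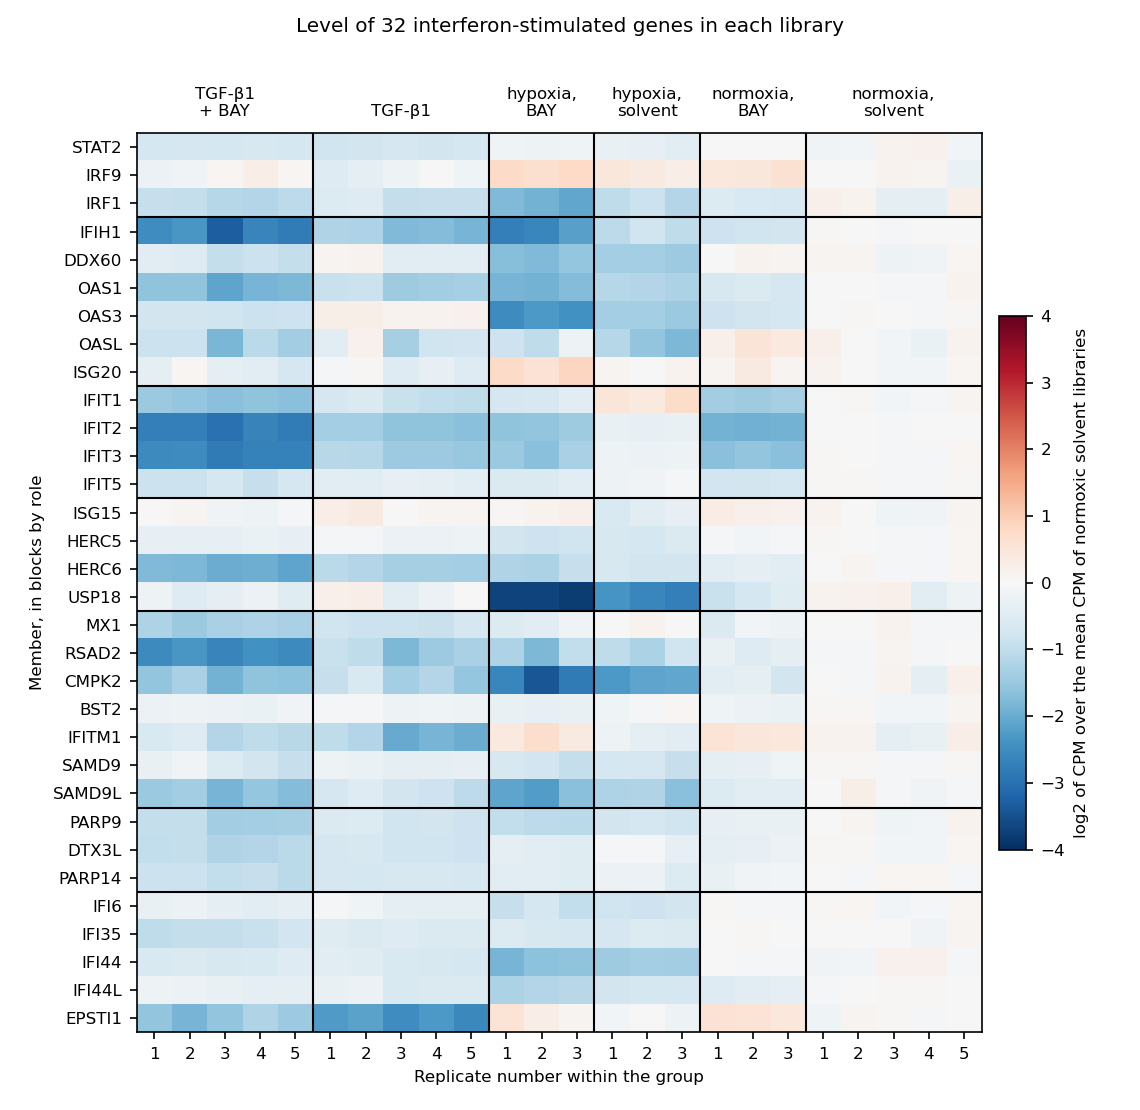
Level of the 32 tested members in each of the 24 libraries, as the log2 of CPM over the mean CPM of the 5 normoxic solvent libraries. Columns are libraries by group, rows are members in blocks by role, and the colour runs from -4 (blue) to 4 (red). Blue prevails outside the normoxic solvent group, and deep blue marks USP18 and CMPK2 in hypoxia, IFIH1, IFIT2 and IFIT3 with TGF-β1 and BAY, and EPSTI1 with TGF-β1 alone.

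TGF-β1, a cytokine that drives fibrosis in the tubule, was compared with solvent in normoxia. Members mostly fell: 27 of the 32 were called lower, 1 higher and 4 were not called, with a median log2 fold change of -0.68 beside -0.04 over all 21639 genes tested. Of all genes 32.5% were called lower and 29.5% higher. EPSTI1, an interferon-induced gene, averaged 0.416 ± 0.0516 CPM with TGF-β1 and 2.10 ± 0.146 CPM with solvent (SD, n = 5 each). IFIT2, which binds viral RNA, averaged 24.3 ± 2.54 CPM with TGF-β1 and 69.3 ± 1.45 CPM with solvent (SD, n = 5 each). OAS3, which makes the 2-5A messenger that switches on RNase L, was the member called higher, at 69.3 ± 2.39 CPM with TGF-β1 and 61.0 ± 2.21 CPM with solvent (SD, n = 5 each). With library subset as a term in the model, a setting added after the data were seen, ISG15 was called higher as well (log2 fold change 0.22, edgeR adjusted p = 0.000261). All 3 tested regulators, all 7 tested members among the other antiviral effectors, all 4 IFIT genes, all 3 genes of the ADP-ribosyltransferase group and all 5 tested other induced genes were called lower.

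BAY added to TGF-β1 was compared with TGF-β1 alone. Here 19 of the 32 tested members fell, 2 rose and 11 were not called, with a median of -0.35 beside 0.01 over all genes. Of all 21639 genes 15.6% were called lower and 13.9% higher. IFIT3 averaged 13.9 ± 1.31 CPM with TGF-β1 and BAY and 34.9 ± 4.78 CPM with TGF-β1 alone, and RSAD2, which encodes the radical-SAM antiviral enzyme viperin, 0.439 ± 0.0390 CPM with TGF-β1 and BAY and 1.04 ± 0.251 CPM with TGF-β1 alone (SD, n = 5 each). The members that rose were EPSTI1, at 0.730 ± 0.120 CPM with TGF-β1 and BAY and 0.416 ± 0.0516 CPM with TGF-β1 alone, and IFITM1, at 10.6 ± 2.30 CPM with TGF-β1 and BAY and 6.61 ± 2.22 CPM with TGF-β1 alone (SD, n = 5 each). With library subset as a term, 4 members were called higher, IRF9 (0.28, edgeR adjusted p = 0.00118) and IFI44L (0.17, edgeR adjusted p = 0.0244) in addition.

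Hypoxia was compared with normoxia in solvent-treated cells. Of the 32 tested members 25 fell, 2 rose and 5 were not called, with a median of -0.67 beside -0.02 over all genes, where 31.6% of 21316 genes were called lower and 29.2% higher. USP18, the protease that removes ISG15 and restrains the interferon receptor, averaged 0.265 ± 0.0362 CPM in hypoxia (SD, n = 3) and 1.55 ± 0.280 CPM in normoxia (SD, n = 5). CMPK2, a mitochondrial nucleotide kinase, averaged 0.477 ± 0.0353 CPM in hypoxia (SD, n = 3) and 2.13 ± 0.315 CPM in normoxia (SD, n = 5). IFIT1 and IRF9 were called higher. All 4 genes of the ISG15 system and 5 of the 6 tested genes of RNA sensing and degradation were called lower.

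BAY in hypoxia was compared with solvent in hypoxia. Of the 32 tested members 20 fell, 6 rose and 6 were not called, with a median of -0.30 beside -0.02 over all genes, where 21.4% of 21316 genes were called lower and 16.5% higher. IFIH1, which encodes the RNA sensor MDA5, averaged 3.21 ± 0.697 CPM with BAY and 9.30 ± 0.888 CPM with solvent (SD, n = 3 each). OASL, an inactive relative of the 2-5A synthases, averaged 0.998 ± 0.299 CPM with BAY and 0.556 ± 0.131 CPM with solvent (SD, n = 3 each) and was among the members called higher, with IFITM1, ISG20, ISG15, EPSTI1 and IRF9.

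BAY in normoxia was compared with solvent in normoxia. Of the 32 tested members 17 fell, 4 rose and 11 were not called, with a median of -0.28 beside 0.00 over all genes, where 23.3% of 21316 genes were called lower and 20.6% higher. IFIT2, IFIT3 and IFIT1 had the 3 largest falls of the members, and the median of the 4 IFIT genes was -1.49. IFIT2 averaged 18.6 ± 0.325 CPM with BAY (SD, n = 3) and 69.3 ± 1.45 CPM with solvent (SD, n = 5). The members called higher were EPSTI1, IRF9, IFITM1 and ISG15. This comparison shares its solvent libraries with the TGF-β1 and hypoxia comparisons.

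The 3 BAY comparisons have no library in common. IFIH1, OAS1, OAS3, IFIT1, IFIT2, IFIT3, IFIT5, HERC6, CMPK2, SAMD9L, PARP9 and DTX3L were called lower in all 3, which is 12 of the 32 tested members. They were 63.2% of the members lowered by BAY on TGF-β1, 60.0% of those lowered in hypoxia and 70.6% of those lowered in normoxia. Of 20928 genes tested in both experiments 7.67% were called lower in all 3. IFITM1 and EPSTI1 were called higher in all 3, 2 of 32 members beside 5.01% of all genes.

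**Figure D3:**
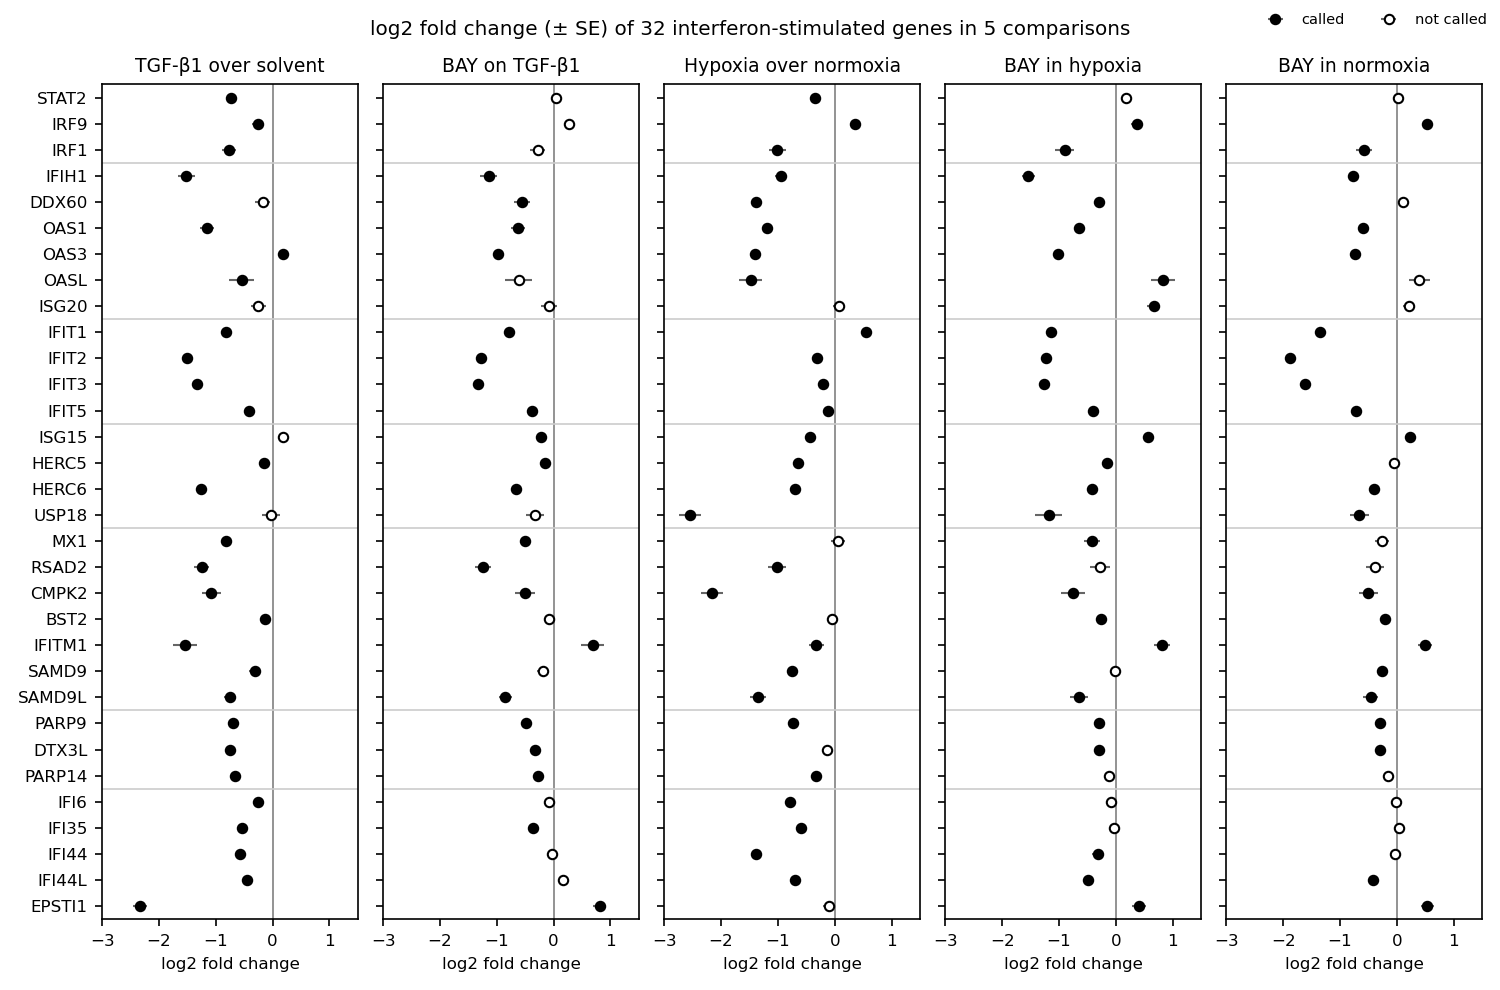
log2 fold change (points) with its SE (bars) for the 32 tested members in the 5 comparisons, each with the treated group over its control. Filled points were called at an adjusted p under 0.05 by edgeR, open points were not, and grey lines part the members by role. Most filled points lie left of 0 in each panel, from 27 with TGF-β1 to 17 with BAY in normoxia, and IFITM1 and EPSTI1 lie right of 0 in the 3 BAY panels.

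Among the regulators, STAT2, the ISGF3 subunit that carries the activation domain, averaged 59.7 ± 1.42 CPM with TGF-β1 and BAY, 57.7 ± 1.63 with TGF-β1 alone and 95.8 ± 10.5 with solvent in normoxia (SD, n = 5 each). All 5 TGF-β1 libraries lay under the lowest solvent library, 86.4 CPM (log2 fold change -0.73, SE 0.0531, adjusted p = 7.34e-10 by edgeR's quasi-likelihood test). In hypoxia STAT2 averaged 85.0 ± 0.964 CPM with BAY and 75.0 ± 3.56 with solvent (SD, n = 3 each). Hypoxia lowered it by a log2 fold change of -0.35, which was -0.21 against the normoxic libraries of subset 1 and -0.54 against those of subset 2, and no BAY comparison called it (log2 fold change 0.02 to 0.18). IRF9, the DNA-binding subunit of ISGF3, rose with BAY in hypoxia and in normoxia. It averaged 20.1 ± 1.04 CPM with BAY and 15.5 ± 0.890 with solvent in hypoxia (SD, n = 3 each), and 17.1 ± 1.27 CPM with BAY (SD, n = 3) and 12.0 ± 1.26 CPM with solvent (SD, n = 5) in normoxia. Its log2 fold changes were 0.37 with BAY in hypoxia, 0.52 with BAY in normoxia and 0.36 in hypoxia, the last 0.22 against subset 2 alone. The fall of IRF9 with TGF-β1 (-0.25, edgeR adjusted p = 0.0423) was lost without any 1 of TGF-β1 alone replicates 1, 2 and 3 and normoxia with solvent replicates 1, 2, 3 and 4 (log2 -0.26 to -0.19, adjusted p = 0.0567 to 0.117). IRF9 shares 1838 exonic bases on its own strand with the clone-named gene AL136295.5, so its counts are uncertain.

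IRF1, a transcription factor of basal and induced interferon responses, averaged 21.3 ± 1.71 CPM with TGF-β1 and BAY and 25.9 ± 3.87 CPM with TGF-β1 alone (SD, n = 5 each). In hypoxia it averaged 11.7 ± 1.19 CPM with BAY and 21.7 ± 2.44 with solvent (SD, n = 3 each), and in normoxia 29.1 ± 0.884 CPM with BAY (SD, n = 3) and 43.9 ± 9.10 with solvent (SD, n = 5). The wide spread of the solvent group follows the library subsets, with means of 50.5 CPM in subset 1 and 34.0 CPM in subset 2. IRF1 fell in hypoxia (-1.01, and -0.67 against subset 2 alone), with BAY in hypoxia (-0.90), with BAY in normoxia (-0.57, and -0.23 against subset 2 alone) and with TGF-β1 (-0.76), and BAY on TGF-β1 gave -0.28 (edgeR adjusted p = 0.106), which was called with library subset as a term (-0.27, edgeR adjusted p = 0.000636). Its exons overlap those of C5orf56 on the opposite strand, and whether the quantification used strand is not given in the sources used here. IRF7, the factor that amplifies type I interferon transcription, was listed at no more than 0.250 CPM in any library.

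Of the genes of RNA sensing and degradation, IFIH1 (ENSG00000115267, chromosome 2, 162267079 to 162318703, minus strand, GRCh38, GENCODE 29) encodes MDA5, which detects long viral RNA in the cytosol. IFIH1 had 3.20, 3.60, 1.83, 2.88 and 2.58 CPM with TGF-β1 and BAY, against 7.87, 7.61, 5.33, 5.44 and 4.96 CPM with TGF-β1 alone. In hypoxia IFIH1 had 2.71, 2.91 and 4.00 CPM with BAY, against 8.69, 10.3 and 8.88 CPM with solvent. In normoxia IFIH1 had 10.1, 10.3 and 10.7 CPM with BAY, against 18.5, 17.8, 17.3, 17.9 and 18.1 CPM with solvent. The 5 normoxic solvent libraries were the highest of all 24, BAY libraries lay below their own controls in each setting, and no pair of groups compared overlapped. IFIH1 fell with TGF-β1 (log2 fold change -1.52, SE 0.148, adjusted p = 5.65e-08 by edgeR) and with BAY in hypoxia (log2 fold change -1.54, SE 0.112, adjusted p = 3.95e-08 by edgeR). Its other log2 fold changes, all called, were -1.15 with BAY on TGF-β1, -0.95 in hypoxia and -0.77 with BAY in normoxia. The overlapping matches of the response element in the IFIH1 promoter are printed above.

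DDX60 (ENSG00000137628, chromosome 4, 168216293 to 168318807, minus strand) encodes a helicase that assists RNA sensors. DDX60 had 24.5, 23.4, 17.2, 18.6 and 17.3 CPM with TGF-β1 and BAY, against 36.4, 37.3, 24.3, 25.1 and 25.1 CPM with TGF-β1 alone. In hypoxia DDX60 had 10.3, 9.87 and 11.4 CPM with BAY, against 13.1, 13.1 and 12.2 CPM with solvent. In normoxia DDX60 had 33.8, 36.6 and 35.9 CPM with BAY, against 36.0, 36.1, 29.3, 30.4 and 35.4 CPM with solvent. Hypoxic libraries were low in both treatments, while TGF-β1 replicates 1 and 2, the subset 1 libraries, lay above the other 3 and above every solvent library, and the other 3 lay below every solvent library. DDX60 fell in hypoxia (log2 fold change -1.38, SE 0.0704, adjusted p = 1.4e-10 by edgeR) and with BAY on TGF-β1 (-0.55), whose groups overlap across the subsets but not within them. BAY in hypoxia gave -0.29, a call lost with all 24 libraries in 1 fit (-0.28, adjusted p = 0.205), whereas TGF-β1 (-0.18, edgeR adjusted p = 0.275) and BAY in normoxia (0.10, edgeR adjusted p = 0.221) did not call it. With library subset as a term TGF-β1 was called lower for DDX60 (-0.12, edgeR adjusted p = 0.0279).

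The 2-5A synthases make the messenger that activates RNase L, which cuts RNA. OAS3 had 36.3, 37.03, 35.5, 33.5 and 34.3 CPM with TGF-β1 and BAY, against 71.7, 72.0, 67.2, 67.5 and 68.0 CPM with TGF-β1 alone. In hypoxia OAS3 had 10.6, 12.4 and 11.3 CPM with BAY, against 23.6, 23.6 and 21.6 CPM with solvent. In normoxia OAS3 had 34.0, 36.6 and 37.5 CPM with BAY, against 61.6, 63.0, 60.6, 57.4 and 62.3 CPM with solvent. OAS3 (ENSG00000111331, chromosome 12, 112938352 to 112973249, plus strand) was highest with TGF-β1 alone, where all 5 libraries lay above every solvent library, and lowest in hypoxia with BAY. It fell in hypoxia (log2 fold change -1.41, SE 0.0523, adjusted p = 4.35e-12 by edgeR), with BAY in hypoxia (-1.01), with BAY on TGF-β1 (-0.97) and with BAY in normoxia (-0.74), and rose with TGF-β1 (log2 fold change 0.18, SE 0.0363, adjusted p = 0.000243 by edgeR). OAS1, the smaller synthase of the same cluster on chromosome 12, fell in all 5 comparisons, from -1.19 in hypoxia to -0.60 with BAY in normoxia. With TGF-β1 it averaged 5.78 ± 1.17 CPM, against 12.9 ± 0.834 CPM with solvent (SD, n = 5 each; log2 fold change -1.16). OAS2, between them in size, was listed at no more than 0.115 CPM in any library.

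OASL (ENSG00000135114, chromosome 12, 121019111 to 121039242, minus strand) lacks synthase activity and enhances RNA sensing by RIG-I. OASL had 0.857, 0.851, 0.437, 0.739 and 0.588 CPM with TGF-β1 and BAY, against 1.14, 1.76, 0.620, 0.893 and 0.911 CPM with TGF-β1 alone. In hypoxia OASL had 0.878, 0.778 and 1.34 CPM with BAY, against 0.701, 0.522 and 0.445 CPM with solvent. In normoxia OASL had 1.80, 2.24 and 2.02 CPM with BAY, against 1.78, 1.55, 1.44, 1.29 and 1.72 CPM with solvent. Levels were low throughout, highest in normoxia with BAY and lowest in hypoxia with solvent. OASL fell in hypoxia (log2 fold change -1.48, SE 0.199, adjusted p = 8.87e-06 by edgeR) and rose with BAY in hypoxia (log2 fold change 0.84, SE 0.216, adjusted p = 0.00617 by edgeR). BAY in normoxia gave 0.40 (edgeR adjusted p = 0.0886) and BAY on TGF-β1 -0.62 (edgeR adjusted p = 0.0526), neither called. With library subset as a term BAY on TGF-β1 was called for OASL (-0.59, edgeR adjusted p = 0.00781). The fall with TGF-β1 (-0.55, edgeR adjusted p = 0.0435) was -0.21 within subset 1 (edgeR adjusted p = 0.402) and -0.76 within subset 2, and the call was lost without any 1 of TGF-β1 alone replicates 1, 3, 4 and 5 and normoxia with solvent replicates 1, 2, 3 and 5 (log2 -0.57 to -0.40, adjusted p = 0.0518 to 0.113). ISG20, an exonuclease gene, rose with BAY in hypoxia, to 3.19 ± 0.316 CPM against 2.00 ± 0.110 CPM with solvent (SD, n = 3 each; log2 fold change 0.67, SE 0.117, adjusted p = 0.000313 by edgeR), and no other comparison called it (log2 fold change -0.25 to 0.22).

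The IFIT genes, neighbours on chromosome 10, encode proteins that bind viral RNA ends and block translation. IFIT1 had 8.96, 8.53, 7.85, 8.25 and 7.90 CPM with TGF-β1 and BAY, against 15.6, 16.8, 13.6, 12.6 and 12.4 CPM with TGF-β1 alone. In hypoxia IFIT1 had 15.7, 16.0 and 18.5 CPM with BAY, against 35.1, 33.2 and 41.5 CPM with solvent. In normoxia IFIT1 had 9.64, 9.26 and 9.99 CPM with BAY, against 25.1, 26.0, 23.1, 24.1 and 26.8 CPM with solvent. IFIT1 (ENSG00000185745, chromosome 10, 89392546 to 89406486, plus strand) was highest in hypoxia with solvent, and every BAY library lay under all libraries of its own control group. It fell with BAY in normoxia (log2 fold change -1.36, SE 0.0767, adjusted p = 1.72e-09 by edgeR), with BAY in hypoxia (-1.13), with TGF-β1 (-0.82) and with BAY on TGF-β1 (-0.78). In hypoxia it rose (log2 fold change 0.55, SE 0.0705, adjusted p = 4.98e-06 by edgeR), with all 3 hypoxic libraries above the 5 normoxic ones.

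IFIT2 (ENSG00000119922, chromosome 10, 89283694 to 89309276, plus strand) binds RNA rich in adenine and uracil. IFIT2 had 10.4, 10.5, 8.69, 10.9 and 9.89 CPM with TGF-β1 and BAY, against 27.1, 27.1, 22.9, 22.6 and 21.9 CPM with TGF-β1 alone. In hypoxia IFIT2 had 22.5, 23.4 and 26.1 CPM with BAY, against 57.0, 54.9 and 56.1 CPM with solvent. In normoxia IFIT2 had 18.7, 18.2 and 18.8 CPM with BAY, against 68.2, 70.5, 67.4, 70.6 and 69.9 CPM with solvent. The groups compared did not overlap in any of the 5 comparisons, the solvent libraries in normoxia were the highest, and the BAY libraries were low in each setting. IFIT2 fell with BAY in normoxia (log2 fold change -1.88, SE 0.0457, adjusted p = 1.9e-13 by edgeR), with TGF-β1 (log2 fold change -1.51, SE 0.0621, adjusted p = 2.1e-13 by edgeR), with BAY on TGF-β1 (-1.27) and with BAY in hypoxia (-1.23), while the change in hypoxia was smaller (-0.31). It shares 356 exonic bases on its strand with the clone-named gene AL353751.1, and its counts are uncertain to that extent.

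IFIT3 (ENSG00000119917, chromosome 10, 89327894 to 89340971, plus strand) stabilises IFIT1 on RNA. IFIT3 had 15.1, 15.3, 12.2, 13.5 and 13.3 CPM with TGF-β1 and BAY, against 40.9, 39.3, 32.1, 32.0 and 30.3 CPM with TGF-β1 alone. In hypoxia IFIT3 had 31.4, 27.6 and 35.8 CPM with BAY, against 76.5, 74.1 and 75.4 CPM with solvent. In normoxia IFIT3 had 27.7, 29.1 and 27.4 CPM with BAY, against 90.5, 86.8, 85.0, 82.0 and 92.6 CPM with solvent. As for IFIT2, BAY libraries were low in each setting and the lowest were those with TGF-β1 and BAY. IFIT3 fell with BAY in normoxia (log2 fold change -1.62, SE 0.0645, adjusted p = 4.01e-11 by edgeR), with BAY on TGF-β1 (-1.33), with TGF-β1 (-1.32) and with BAY in hypoxia (-1.26). The fall in hypoxia (-0.21, edgeR adjusted p = 0.00625) became -0.17 (edgeR adjusted p = 0.053) against subset 2 alone. IFIT5, which binds RNA with a triphosphate end, moved less: 14.3 ± 0.279 CPM with BAY in normoxia (SD, n = 3) against 23.9 ± 1.16 CPM with solvent (SD, n = 5; log2 fold change -0.72), and -0.42 with TGF-β1, -0.40 with BAY in hypoxia and -0.39 with BAY on TGF-β1. Its call in hypoxia (-0.13, edgeR adjusted p = 0.0453) was lost in 11 of the other settings tried, among them without any 1 of hypoxia with solvent replicates 1 and 2 and normoxia with solvent replicates 1, 2 and 5 (log2 -0.12 to -0.08, adjusted p = 0.0807 to 0.27) and against subset 2 alone (-0.07, edgeR adjusted p = 0.309).

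**Figure D4:**
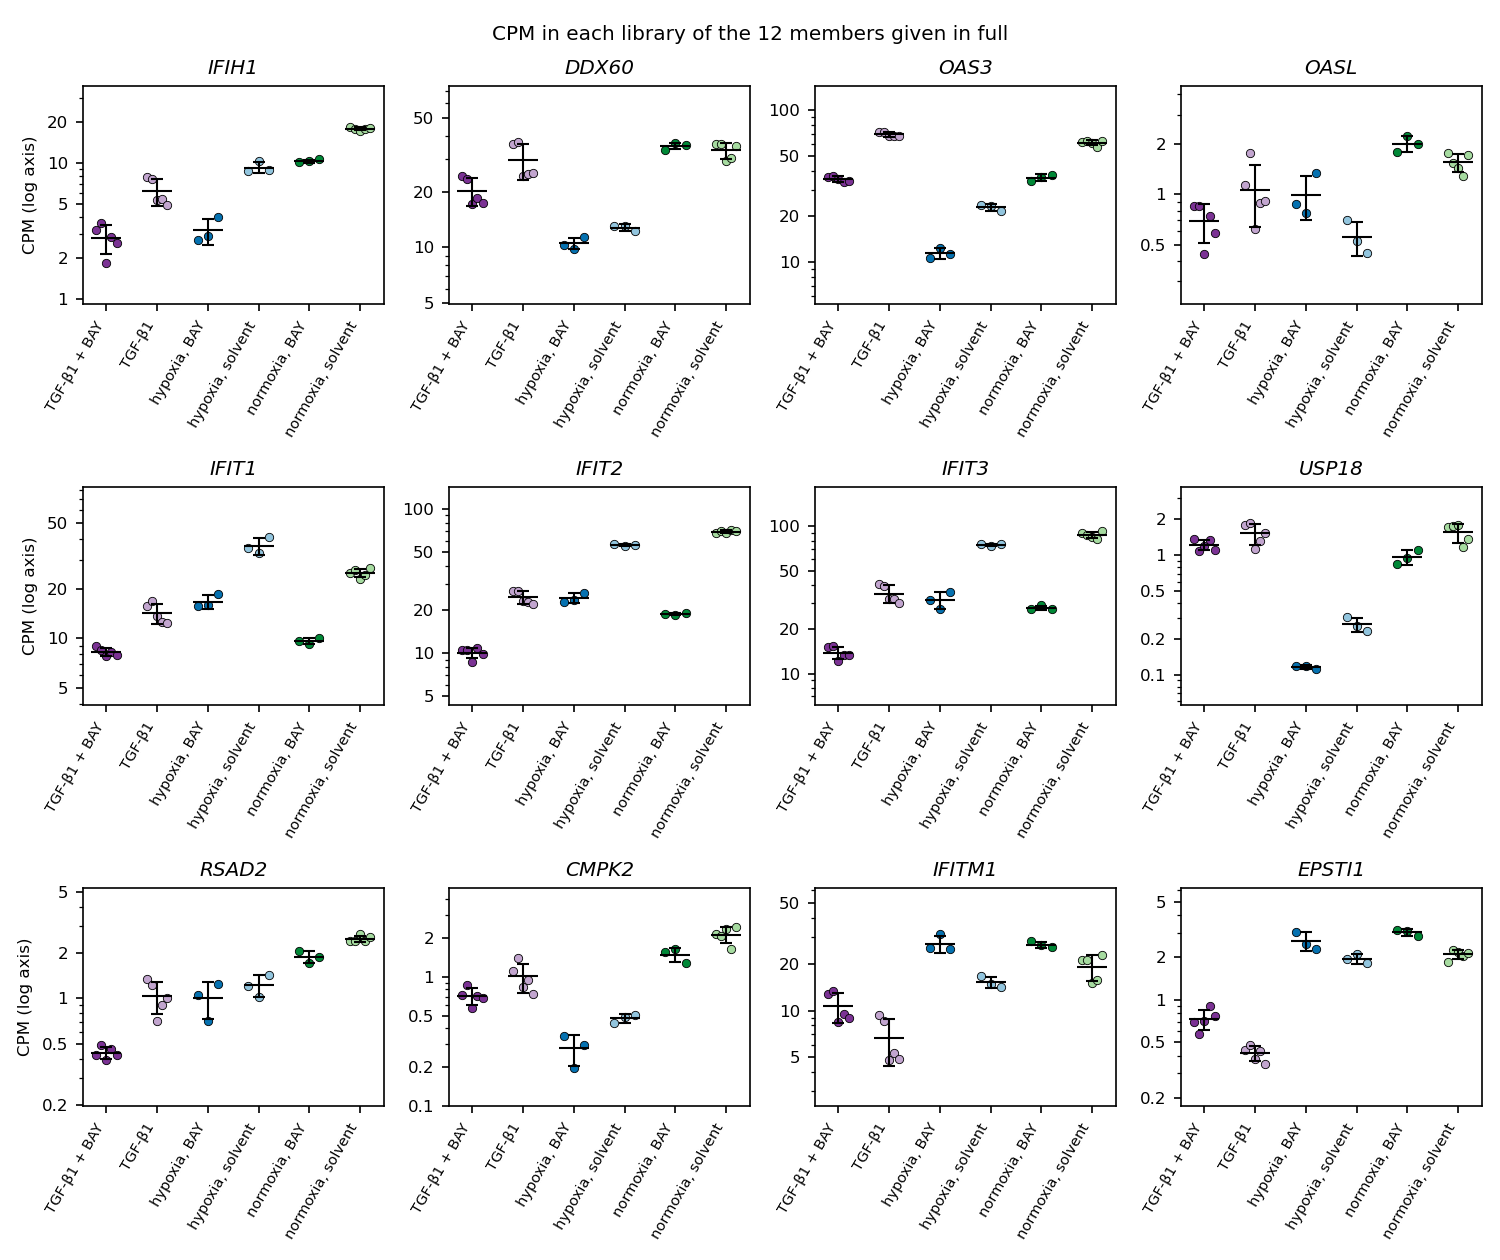
CPM (log axis) in each library of the 12 members given in full. Points are libraries in order of replicate number, horizontal bars are group means and error bars are the SD (n = 5 with TGF-β1 and in normoxia with solvent, n = 3 in the other groups). The IFIT panels show the BAY groups below their controls in each setting, and the USP18 and CMPK2 panels show both hypoxic groups under 1 CPM.

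The ISG15 system attaches and removes a ubiquitin-like tag. USP18 (ENSG00000184979, chromosome 22, 18149899 to 18177397, plus strand) removes the tag and holds back the type I receptor. USP18 had 1.35, 1.09, 1.19, 1.33 and 1.12 CPM with TGF-β1 and BAY, against 1.80, 1.86, 1.12, 1.31 and 1.53 CPM with TGF-β1 alone. In hypoxia USP18 had 0.119, 0.119 and 0.112 CPM with BAY, against 0.305, 0.256 and 0.234 CPM with solvent. In normoxia USP18 had 0.838, 0.955 and 1.11 CPM with BAY, against 1.73, 1.76, 1.77, 1.16 and 1.35 CPM with solvent. Both hypoxic groups lay under every normoxic library, and the hypoxic BAY libraries under the hypoxic solvent ones. USP18 fell in hypoxia (log2 fold change -2.54, SE 0.194, adjusted p = 1.34e-08 by edgeR), with BAY in hypoxia (log2 fold change -1.18, SE 0.235, adjusted p = 0.000864 by edgeR) and with BAY in normoxia (-0.66). TGF-β1 (-0.03, edgeR adjusted p = 0.889) and BAY on TGF-β1 (-0.33, edgeR adjusted p = 0.127) did not call it. USP18 has near-identical copies on chromosome 22, so its counts are uncertain.

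ISG15 itself averaged 13.0 ± 0.705 CPM with BAY and 8.72 ± 0.826 with solvent in hypoxia (SD, n = 3 each), and 13.8 ± 0.563 CPM with BAY (SD, n = 3) and 11.8 ± 1.10 CPM with solvent (SD, n = 5) in normoxia. It rose with BAY in hypoxia (log2 fold change 0.57, SE 0.0844, adjusted p = 6.6e-05 by edgeR) and fell in hypoxia (-0.43). The rise with BAY in normoxia (0.24) was lost without any 1 of normoxia with BAY replicates 1 and 2 (log2 0.20 to 0.24, adjusted p = 0.0533 to 0.111) and was 0.17 against subset 1 alone (edgeR adjusted p = 0.0554). The fall with BAY on TGF-β1 (-0.22, edgeR adjusted p = 0.0386) was lost without any 1 of TGF-β1 alone replicates 1, 2 and 5 and TGF-β1 with BAY replicates 3, 4 and 5 (log2 -0.23 to -0.17, adjusted p = 0.0572 to 0.115). HERC5, the ligase that attaches ISG15, fell in hypoxia to 25.8 ± 1.15 CPM (SD, n = 3) against 40.2 ± 2.03 CPM in normoxia (SD, n = 5; log2 fold change -0.64) and by -0.16 with TGF-β1. With BAY on TGF-β1 it was -0.15, or -0.27 within subset 1 and -0.07 within subset 2, and its call with BAY in hypoxia (-0.15) was lost without any 1 of hypoxia with BAY replicates 2 and 3 and hypoxia with solvent replicate 3 (log2 -0.14 to -0.11, adjusted p = 0.0623 to 0.0944). HERC6, its relative, fell in all 5 comparisons, from -1.25 with TGF-β1 to -0.39 with BAY in normoxia.

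RSAD2 and CMPK2 lie head to head on chromosome 2 and are commonly induced together. RSAD2 (ENSG00000134321, chromosome 2, 6865806 to 6898239, plus strand) encodes viperin, which makes a chain-terminating nucleotide. RSAD2 had 0.423, 0.492, 0.393, 0.463 and 0.423 CPM with TGF-β1 and BAY, against 1.34, 1.22, 0.712, 0.905 and 1.01 CPM with TGF-β1 alone. In hypoxia RSAD2 had 1.05, 0.712 and 1.25 CPM with BAY, against 1.21, 1.02 and 1.43 CPM with solvent. In normoxia RSAD2 had 2.03, 1.72 and 1.88 CPM with BAY, against 2.39, 2.40, 2.65, 2.40 and 2.52 CPM with solvent. Libraries with TGF-β1 and BAY were the lowest of all, below each TGF-β1 library. RSAD2 fell with TGF-β1 (log2 fold change -1.25, SE 0.136, adjusted p = 1.95e-07 by edgeR), with BAY on TGF-β1 (log2 fold change -1.24, SE 0.143, adjusted p = 2.49e-06 by edgeR) and in hypoxia (-1.02). BAY gave -0.28 in hypoxia (edgeR adjusted p = 0.246) and -0.38 in normoxia (edgeR adjusted p = 0.0617), neither called.

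CMPK2 (ENSG00000134326, chromosome 2, 6840570 to 6866635, minus strand) feeds nucleotides to viperin and to mitochondrial DNA synthesis. CMPK2 had 0.719, 0.872, 0.572, 0.706 and 0.682 CPM with TGF-β1 and BAY, against 1.12, 1.40, 0.838, 0.951 and 0.731 CPM with TGF-β1 alone. In hypoxia CMPK2 had 0.347, 0.198 and 0.298 CPM with BAY, against 0.437, 0.490 and 0.503 CPM with solvent. In normoxia CMPK2 had 1.55, 1.65 and 1.27 CPM with BAY, against 2.14, 2.07, 2.36, 1.65 and 2.45 CPM with solvent. All 6 hypoxic libraries lay under all others. CMPK2 fell in hypoxia (log2 fold change -2.16, SE 0.186, adjusted p = 5.37e-08 by edgeR), with TGF-β1 (-1.08) and with BAY in hypoxia (-0.76), the last not called by limma-voom (-0.77, adjusted p = 0.0645). Its call with BAY on TGF-β1 (-0.50) was lost without any 1 of TGF-β1 alone replicates 1 and 2 and TGF-β1 with BAY replicates 3, 4 and 5 (log2 -0.50 to -0.36, adjusted p = 0.0557 to 0.107), and within subset 2 it was -0.36 (edgeR adjusted p = 0.111). Its call with BAY in normoxia (-0.50) was lost without any 1 of normoxia with BAY replicates 1 and 3 and normoxia with solvent replicate 5 (log2 -0.54 to -0.41, adjusted p = 0.0502 to 0.119), and against subset 2 alone it was -0.43 (edgeR adjusted p = 0.102).

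IFITM1 (ENSG00000185885, chromosome 11, 313506 to 315272, plus strand) encodes a membrane protein that keeps enveloped viruses from fusing at the cell surface. IFITM1 had 12.7, 13.5, 8.47, 9.53 and 8.97 CPM with TGF-β1 and BAY, against 9.42, 8.61, 4.80, 5.34 and 4.88 CPM with TGF-β1 alone. In hypoxia IFITM1 had 25.3, 31.1 and 24.9 CPM with BAY, against 16.7, 14.9 and 14.3 CPM with solvent. In normoxia IFITM1 had 28.0, 26.4 and 25.6 CPM with BAY, against 21.4, 21.1, 15.1, 15.7 and 22.9 CPM with solvent. Subset 1 libraries were higher than subset 2 libraries in each group of 5, the TGF-β1 groups lay under all others, and BAY libraries lay above their controls within each subset. IFITM1 fell with TGF-β1 (log2 fold change -1.54, SE 0.204, adjusted p = 4.26e-06 by edgeR) and rose with BAY on TGF-β1 (0.69; 0.54 within subset 1 and 0.84 within subset 2), with BAY in hypoxia (log2 fold change 0.82, SE 0.141, adjusted p = 0.000449 by edgeR) and with BAY in normoxia (0.50; 0.33 against subset 1 and 0.79 against subset 2, and not called with all 24 libraries in 1 fit, 0.47, adjusted p = 0.0735). The call in hypoxia (-0.32, edgeR adjusted p = 0.0415) became -0.49 against subset 1 and -0.03 (edgeR adjusted p = 0.803) against subset 2, and was lost without any 1 of hypoxia with solvent replicates 2 and 3 and normoxia with solvent replicates 1, 2 and 5 (log2 -0.29 to -0.25, adjusted p = 0.0814 to 0.146). It shares 351 exonic bases on its strand with its paralog IFITM2, so reads can trade between them.

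Of the remaining effectors, SAMD9 and SAMD9L, neighbours on chromosome 7, encode restriction factors for poxviruses. SAMD9L fell in all 5 comparisons, from -1.35 in hypoxia to -0.46 with BAY in normoxia, the last -0.37 against subset 2 alone (edgeR adjusted p = 0.0714). SAMD9 fell in hypoxia, to 9.89 ± 0.874 CPM (SD, n = 3) against 16.8 ± 0.656 CPM in normoxia (SD, n = 5; log2 fold change -0.76), and by -0.31 with TGF-β1. BAY on TGF-β1 gave -0.19 (edgeR adjusted p = 0.198), which was called with library subset as a term (-0.20, edgeR adjusted p = 0.0435). Its call with BAY in normoxia (-0.27) was lost without normoxia with BAY replicate 1 (log2 -0.23, adjusted p = 0.0507) and against subset 2 alone (-0.23, edgeR adjusted p = 0.0572). MX1 averaged 0.966 ± 0.0630 CPM with TGF-β1 and BAY, 1.36 ± 0.0846 with TGF-β1 alone and 2.39 ± 0.151 with solvent (SD, n = 5 each), with log2 fold changes of -0.50 with BAY on TGF-β1 and -0.81 with TGF-β1, both called. The call of MX1 with BAY in hypoxia (-0.42) was lost without any 1 of hypoxia with BAY replicates 1 and 2 and hypoxia with solvent replicate 2 (log2 -0.39 to -0.34, adjusted p = 0.0791 to 0.115). BST2 kept a high level in every group, 118 ± 6.84 CPM with TGF-β1 and 129 ± 9.34 CPM with solvent (SD, n = 5 each). It fell with BAY in hypoxia (-0.26) and with BAY in normoxia (-0.20; -0.11 against subset 2 alone, edgeR adjusted p = 0.0953). Its call with TGF-β1 (-0.13) was lost without any 1 of TGF-β1 alone replicates 3, 4 and 5 and normoxia with solvent replicates 1, 2 and 5 (log2 -0.12 to -0.10, adjusted p = 0.056 to 0.076) and was -0.07 within subset 2 (edgeR adjusted p = 0.0595).

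PARP9, DTX3L and PARP14 form the ADP-ribosyltransferase group, in which PARP9 and the ubiquitin ligase DTX3L work as a complex. PARP9 averaged 15.7 ± 2.42 CPM with TGF-β1 and BAY, 22.0 ± 1.85 with TGF-β1 alone and 35.6 ± 3.13 with solvent (SD, n = 5 each), and DTX3L 29.4 ± 2.22, 36.8 ± 2.38 and 61.6 ± 4.02 CPM in the same groups. Both fell with TGF-β1, by log2 fold changes of -0.70 for PARP9 and -0.74 for DTX3L, and with BAY in all 3 settings, from -0.48 to -0.29 for PARP9 (-0.17 with BAY in normoxia against subset 2 alone) and from -0.32 to -0.29 for DTX3L. In hypoxia PARP9 fell by a log2 fold change of -0.74, and DTX3L gave -0.14 (edgeR adjusted p = 0.0596). Their exons overlap by 217 bases on opposite strands. PARP14, a mono-ADP-ribosyltransferase gene, fell with TGF-β1 (-0.66), in hypoxia (-0.32) and with BAY on TGF-β1 (-0.28; -0.18 within subset 1).

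Among the other induced genes, EPSTI1 (ENSG00000133106, chromosome 13, 42886388 to 42992271, minus strand) showed the largest change of any member with TGF-β1. EPSTI1 had 0.698, 0.574, 0.707, 0.905 and 0.764 CPM with TGF-β1 and BAY, against 0.441, 0.480, 0.379, 0.429 and 0.350 CPM with TGF-β1 alone. In hypoxia EPSTI1 had 3.06, 2.50 and 2.28 CPM with BAY, against 1.95, 2.11 and 1.81 CPM with solvent. In normoxia EPSTI1 had 3.12, 3.08 and 2.84 CPM with BAY, against 1.87, 2.25, 2.18, 2.05 and 2.15 CPM with solvent. The TGF-β1 groups lay far under all others, and BAY libraries lay above their own controls in each setting. EPSTI1 fell with TGF-β1 (log2 fold change -2.33, SE 0.122, adjusted p = 6.83e-12 by edgeR). It rose with BAY on TGF-β1 (log2 fold change 0.81, SE 0.122, adjusted p = 5.43e-05 by edgeR), at 0.46 within subset 1 (edgeR adjusted p = 0.0653) and 1.04 within subset 2. It also rose with BAY in normoxia (0.54) and with BAY in hypoxia (0.41), where the call was lost without any 1 of hypoxia with BAY replicate 1 and hypoxia with solvent replicate 3 (log2 0.28 to 0.36, adjusted p = 0.0589 to 0.101). Hypoxia gave -0.10 (edgeR adjusted p = 0.465).

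IFI44L, IFI44, IFI6 and IFI35 all fell in hypoxia and with TGF-β1. IFI44L, an antiviral gene next to IFI44 on chromosome 1, averaged 100 ± 2.01 CPM in hypoxia (SD, n = 3) and 163 ± 5.59 CPM in normoxia (SD, n = 5; log2 fold change -0.70), and fell with BAY in hypoxia (-0.49) and with BAY in normoxia (-0.41). With TGF-β1 it was -0.45, or -0.25 within subset 1. IFI44 averaged 9.65 ± 0.280 CPM in hypoxia (SD, n = 3) and 25.3 ± 2.71 CPM in normoxia (SD, n = 5; log2 fold change -1.39). With TGF-β1 IFI44 was -0.57, or -0.34 within subset 1, and its call with BAY in hypoxia (-0.32) was lost without any 1 of hypoxia with BAY replicate 1 and hypoxia with solvent replicate 2 (log2 -0.30 to -0.25, adjusted p = 0.0561 to 0.0918). IFI6, a mitochondrial survival protein gene, changed by -0.78 in hypoxia and -0.26 with TGF-β1, and no BAY comparison called it (-0.09 to -0.01). IFI35 changed by -0.59 in hypoxia and -0.54 with TGF-β1, and by -0.37 with BAY on TGF-β1. IFI27 and XAF1 were listed at no more than 0.0579 and 0.00963 CPM in any library.

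Whether the BAY effect differed between settings was tested as an interaction, whose log2 value is the BAY effect in hypoxia or with TGF-β1 minus that in normoxia. Both interactions use the same normoxic BAY and solvent libraries. In the oxygen by BAY interaction 3 of the 32 tested members were called higher, 3 lower and 26 were not called, with a median of -0.05 beside -0.03 over all genes, where 8.83% of 21316 genes were called higher and 7.92% lower. In the TGF-β1 by BAY interaction 4 were called higher, 6 lower and 22 were not called, with a median of -0.03 beside 0.03 over all genes, where 13.7% of 21639 genes were called higher and 7.08% lower. IFIT2 fell less with BAY in hypoxia (-1.23) than in normoxia (-1.88), with an interaction of 0.65 (SE 0.0643, edgeR adjusted p = 7.91e-06), and less with BAY on TGF-β1 (-1.27), with an interaction of 0.62 (SE 0.0954, edgeR adjusted p = 0.000103). IFIT5 had interactions of 0.32 with oxygen and 0.35 with TGF-β1. IFIT3 had 0.36 with oxygen, a call lost with all 24 libraries in 1 fit (0.39, adjusted p = 0.0601), and 0.30 with TGF-β1 (edgeR adjusted p = 0.0847), and IFIT1 0.22 with oxygen (edgeR adjusted p = 0.188) and 0.60 with TGF-β1. IFI44L, which fell with BAY in normoxia and gave 0.16 with BAY on TGF-β1, had an interaction of 0.59 with TGF-β1 (edgeR adjusted p = 0.000216).

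The interactions called lower included 3 of the 6 tested genes of RNA sensing and degradation in each case. IFIH1 fell more with BAY in hypoxia than in normoxia (interaction -0.77, edgeR adjusted p = 0.00187), and RSAD2 more with BAY on TGF-β1 (interaction -0.85, edgeR adjusted p = 0.00636). ISG15 and IFI35 had interactions of -0.44 and -0.39 with TGF-β1. OAS3 had -0.21 with TGF-β1, and its -0.27 with oxygen was lost without any 1 of hypoxia with BAY replicate 1, normoxia with BAY replicates 2 and 3 and hypoxia with solvent replicates 1 and 2 (log2 -0.26 to -0.22, adjusted p = 0.0554 to 0.114) and with replicate number as a block (-0.26, adjusted p = 0.0513). DDX60 had -0.39 with oxygen, lost without any 1 of normoxia with BAY replicates 2 and 3 (log2 -0.35 to -0.34, adjusted p = 0.0698 to 0.0812) and with all 24 libraries in 1 fit (-0.36, adjusted p = 0.297), and -0.64 with TGF-β1, lost without any 1 of normoxia with BAY replicates 1, 2 and 3, TGF-β1 alone replicates 1 and 2, TGF-β1 with BAY replicates 3, 4 and 5 and normoxia with solvent replicates 3 and 4 (log2 -0.67 to -0.54, adjusted p = 0.0546 to 0.0825). OASL had -0.99 with TGF-β1 (edgeR adjusted p = 0.047), and leaving out any 1 of 14 of the 18 libraries ended this call.

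**Figure D5:**
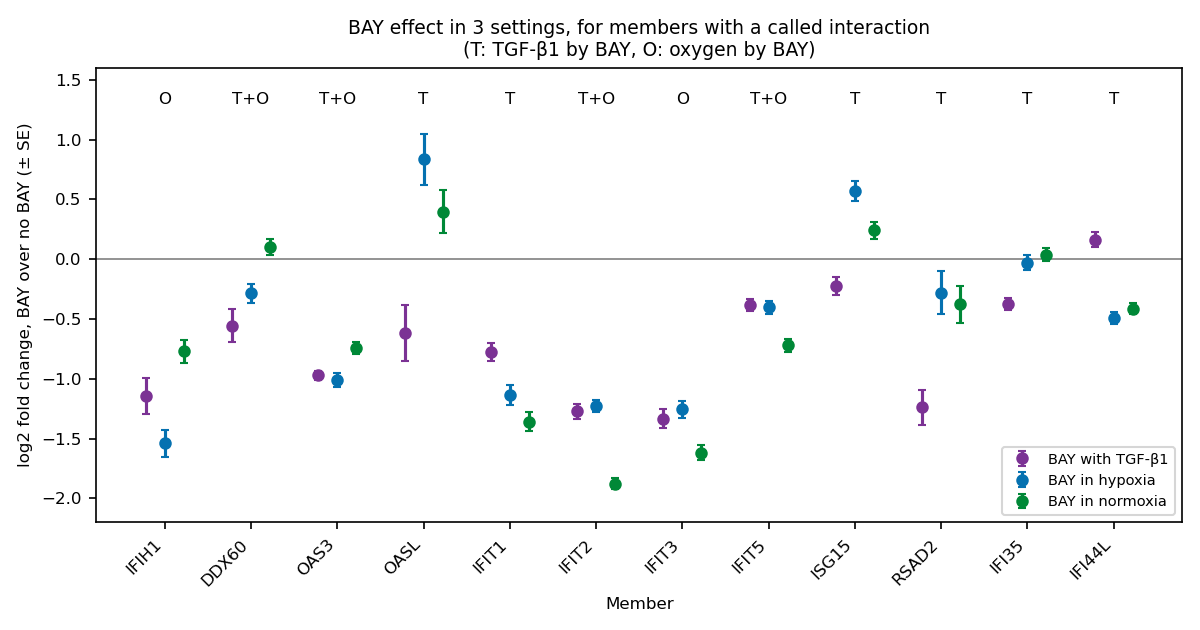
BAY effect, as the log2 fold change of BAY over no BAY with its SE, with TGF-β1, in hypoxia and in normoxia, for the 12 members with at least 1 called interaction. Letters above each member mark the TGF-β1 by BAY (T) and oxygen by BAY (O) interactions that were called. For the IFIT genes the normoxic point is the lowest of the 3, and for IFIH1, DDX60 and OAS3 it is the highest.

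Other genes of the pathway were taken from a list of 60, of which 56 were matched by symbol and 47 tested, and the other 4 are not analysed here. Of the 47, with TGF-β1 29 fell and 10 rose, beside 32.5% and 29.5% of all genes. With BAY on TGF-β1 22 fell and 2 rose, beside 15.6% and 13.9% of all genes. In hypoxia 18 fell and 11 rose, beside 31.6% and 29.2% of all genes. With BAY in hypoxia 22 fell and 6 rose, beside 21.4% and 16.5% of all genes, and with BAY in normoxia 19 fell and 4 rose, beside 23.3% and 20.6% of all genes. In the interactions 8 were called higher and 4 lower with oxygen, beside 8.83% and 7.92% of all genes, and 5 higher and 5 lower with TGF-β1, beside 13.7% and 7.08%. The median log2 fold changes of the 47 were -0.31 with TGF-β1, -0.25 with BAY on TGF-β1, -0.04 in hypoxia, -0.20 with BAY in hypoxia and -0.16 with BAY in normoxia.

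Of the ligands, IFNB1, IFNA1 and IFNK were listed at 0 in all 24 libraries, and IFNG in 23 of them. IFNL1, IFNL2 and IFNL3 were among the genes not matched by symbol, so their levels are not known here. IFNA1 was the only IFNA gene on the list. A count of 0 in the shallowest library allows up to 0.0380 CPM, for counting error only. IFNE, an interferon known from epithelium of the reproductive tract, had 1.83, 1.71, 2.31, 2.48 and 2.06 CPM with TGF-β1 and BAY, 0.463, 0.615, 0.738, 0.441 and 0.774 CPM with TGF-β1 alone and 0.0291, 0.0743, 0.120, 0.250 and 0.0770 CPM with solvent in normoxia. The 3 groups did not overlap, and IFNE rose with TGF-β1 (log2 fold change 2.45, SE 0.358, adjusted p = 8.35e-06 by edgeR) and with BAY on TGF-β1 (log2 fold change 1.78, SE 0.314, adjusted p = 0.000265 by edgeR). IFNE (ENSG00000184995, chromosome 9, 21480839 to 21482313) lies inside the gene MIR31HG on the same strand, so reads from the longer transcript may count for it.

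Of the receptor chains, IFNAR2 fell with BAY in each setting (-0.52 on TGF-β1, -0.78 in hypoxia and -0.68 in normoxia), whereas IFNAR1 was -0.14, 0.05 and -0.16, the middle value not called. JAK2, a kinase of the interferon-γ receptor, fell in hypoxia (-1.40).

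Of the sensors, RIGI fell with TGF-β1 (-1.27) to 12.2 ± 2.07 CPM, against 29.3 ± 3.41 CPM with solvent (SD, n = 5 each), and was not called in hypoxia (0.04). TLR3, the endosomal RNA receptor, fell with TGF-β1 (-1.59), with BAY on TGF-β1 (-0.96), in hypoxia (-1.28) and with BAY in hypoxia (-0.85). IKBKE, a kinase that activates IRF3, fell with BAY in each setting (-0.75 on TGF-β1, -1.15 in hypoxia and -1.20 in normoxia). UBA7 and UBE2L6, the enzymes that activate and carry ISG15, fell with TGF-β1 (-0.82 and -0.59) and with BAY on TGF-β1 (-0.34 and -0.33). Among inhibitors SOCS1 fell with TGF-β1 (-2.01), and the phosphatase gene PTPN2 rose in hypoxia (0.69). SOCS1 was low and followed the library subsets. In normoxia with solvent it had 1.88, 1.87 and 1.63 CPM in subset 1 and 0.847 and 0.823 CPM in subset 2. With TGF-β1 alone it had 0.128 to 0.635 CPM. Values of these other pathway genes were not checked in the alternative settings.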

How the data were processed

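Poly(A) RNA of 24 HK-2 cultures was sequenced. The deposited table holds estimated counts per Ensembl gene ID, which the authors made with Salmon against GRCh38 (hg38), per the submitters' processing notes; the sources used here do not give versions, annotation release or strand setting. Of the nonzero values 48.6% were not whole, and all were rounded. The members and lists were chosen with earlier results of these data known. No value column was left unassigned to a sample. Some genes of the lists are counted but not reported here by name.

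Genes were tested with edgeR 4.0.16 (R 4.3.3; filterByExpr, TMM, robust quasi-likelihood fit, 1 coefficient per group), in 14 libraries of the hypoxia experiment (21316 genes) and 18 of the TGF-β1 experiment (21639 genes), and called at a Benjamini-Hochberg adjusted p under 0.05 over all genes tested. The SE is the log2 fold change over the root of F, an approximation. CPM were scaled by TMM over all 24 libraries. Both fits were run on data simulated from their own fitted spread, without library subsets or pairing of replicates. That run cannot speak of either, and it left the interactions and the comparison of hypoxia with normoxia in solvent untested. Library by library values are given for members of at least 1 CPM in some group that were called, did not overlap between groups and were among the 4 largest changes in a comparison; overlap was not applied to the 2 interactions. Positions and lengths come from GENCODE 29, which may not be the authors' annotation, and promoters from RefSeq (GRCh38.p14). Figures were drawn with matplotlib 3.10.9 in Python 3.11.15, with tables read by pandas 2.3.3.

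Replicate numbers, taken from the labels, were checked for pairing by the correlation of deviations from group means. Every pair's r was above 0.1 for BAY in hypoxia (0.181 to 0.452) and for BAY on TGF-β1 (0.436 to 0.765), and not in the other comparisons. Replicates differed by more than sampling noise (chi-square per degree of freedom 5.46 to 48.1 over 39 pairs). Alternatives, run for the members only, were DESeq2 size factors, no filter on low counts, DESeq2 1.42.0, limma-voom (limma 3.58.1), all 24 libraries in 1 fit, the replicate block, each library subset alone, each replicate left out, and library subset as a term.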

Additional observations from a re-analysis of the deposited data

Results flagged for a closer look

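The BAY effect in hypoxia minus that in normoxia differed from 0 by edgeR's interaction test for 6 members. Of the 32 tested, 3 were called higher and 3 lower, beside 8.83% and 7.92% of all genes, so members were called about as often as all genes. IFIH1 had -0.77 (adjusted p = 0.00187), DDX60 -0.39 (adjusted p = 0.0159) and OAS3 -0.27 (adjusted p = 0.0235). IFIT2 had 0.65 (adjusted p = 7.91e-06), IFIT3 0.36 (adjusted p = 0.0139) and IFIT5 0.32 (adjusted p = 0.0112). The calls of DDX60, OAS3 and IFIT3 were lost in some of the other settings tried, as given above.

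The BAY effect with TGF-β1 minus that in normoxia differed for 10 members by the same test. Of the 32 tested, 4 were called higher and 6 lower, beside 13.7% and 7.08% of all genes. The share called higher was thus close to that of all genes. Those with a more negative BAY effect on TGF-β1 were DDX60 at -0.64 (adjusted p = 0.0355), OAS3 at -0.21 (adjusted p = 0.00955), OASL at -0.995 (adjusted p = 0.047), ISG15 at -0.44 (adjusted p = 0.0111), RSAD2 at -0.85 (adjusted p = 0.00636) and IFI35 at -0.39 (adjusted p = 0.00114). Those with a less negative or more positive one were IFIT1 at 0.60 (adjusted p = 0.000855), IFIT2 at 0.62 (adjusted p = 0.000103), IFIT5 at 0.35 (adjusted p = 0.00244) and IFI44L at 0.59 (adjusted p = 0.000216). The calls of DDX60 and OASL were lost in 11 and 15 of the other settings tried. In the groups of 5 libraries, no library of a member described library by library stood apart by Dixon's criterion (0 of 36 groups). The library subsets widen the range within these groups, so this criterion could hardly mark a single library and says little here.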

How the results depend on the processing

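No called member value changed sign under any alternative tried. Of 139 called values, 5 lost the call with DESeq2 size factors, 10 with no filter on low counts, 2 with DESeq2, 4 with limma-voom, 7 with all 24 libraries in 1 fit and 2 with the replicate block. Of 113, 3 lost it in subset 1 alone and 9 in subset 2 alone. Leaving out 1 library ended 89 of 1294 calls, and the added subset term 0 of 49. The number of members called higher was 5 (DESeq2) and 6 (subset 1 alone) for the oxygen by BAY interaction, where 3 were reported. For TGF-β1 it was 2, where 1 was reported, with DESeq2 size factors, DESeq2, all 24 libraries, the replicate block, either subset alone and the subset term. For BAY on TGF-β1 it was 4, where 2 were reported, with all 24 libraries, subset 2 alone and the subset term, and for the TGF-β1 by BAY interaction 8 in subset 1 alone and 7 in subset 2 alone, where 4 were reported. The cause was not tested. The replicate block moved no other count of members called by over 1.5 times.

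With 1 replicate left out, members called higher and lower ranged from 2 to 2 and 23 to 26 in hypoxia, 3 to 4 and 15 to 17 with BAY in normoxia, 5 to 6 and 18 to 20 with BAY in hypoxia, 3 to 5 and 1 to 3 in the oxygen by BAY interaction, 1 to 2 and 24 to 27 with TGF-β1, 2 to 3 and 17 to 21 with BAY on TGF-β1, and 4 to 5 and 4 to 7 in the TGF-β1 by BAY interaction. The median over members in the TGF-β1 by BAY interaction ranged from -0.0734 to 0.00774, with the positive value without replicate 1 of TGF-β1 alone. The oxygen by BAY interaction had 1 member called lower without replicate 2 or 3 of normoxia with BAY and 5 called higher without replicate 3 of hypoxia with solvent. TGF-β1 had 2 called higher without replicate 1 or 5 of normoxia with solvent or replicate 3 of TGF-β1 alone. Members near 1 CPM or below in some groups, such as OASL, CMPK2, USP18 and RSAD2, rest on fewer reads than members at higher levels. The lowest group mean among these was that of USP18 in hypoxia with BAY, at 0.117 CPM.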

Other observations

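Genes of class I antigen presentation, which interferon also induces, were on the same list of pathway genes. The 13 tested include HLA-C, HLA-E and HLA-F, listed at no more than 0.254, 0.351 and 0.819 CPM in any library. Their part in these counts is therefore uncertain. Of the 13, with TGF-β1 8 fell and 1 rose, beside 32.5% and 29.5% of all genes. With BAY on TGF-β1 8 fell and 0 rose, beside 15.6% and 13.9% of all genes. In hypoxia 5 fell and 2 rose, beside 31.6% and 29.2% of all genes. With BAY in hypoxia 6 fell and 1 rose, beside 21.4% and 16.5% of all genes, and with BAY in normoxia 6 fell and 0 rose, beside 23.3% and 20.6% of all genes. TAP1, TAPBP and PSMB10, of peptide transport, loading and the immunoproteasome, fell in each BAY comparison (TAPBP -0.50 on TGF-β1, -0.38 in hypoxia and -0.44 in normoxia). TAP2 fell in hypoxia (-1.53) and rose with TGF-β1 (0.24). NLRC5, the transactivator of these genes, rose with BAY in hypoxia (0.70) and fell with BAY in normoxia (-0.21) and on TGF-β1 (-0.53).

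The guanylate-binding protein genes did not move as 1 group. GBP1 averaged 4.62 ± 1.07 CPM with TGF-β1 and BAY, 10.7 ± 1.36 with TGF-β1 alone and 17.1 ± 2.91 with solvent in normoxia (SD, n = 5 each), and fell in all 5 comparisons, among them -1.21 with BAY on TGF-β1 and -1.66 in hypoxia. GBP2 rose in hypoxia (0.78), with BAY in hypoxia (0.71) and with BAY in normoxia (0.45) and fell with TGF-β1 (-1.41). Both genes followed the library subsets in normoxia with solvent. There GBP2 had 30, 30.2 and 29.4 CPM in subset 1 and 21.6 and 20.9 CPM in subset 2. GBP1 had 19.3, 19.9 and 18.4 CPM in subset 1 and 14.4 and 13.6 CPM in subset 2. Their changes were not checked within subsets. CXCL10, the chemokine most often used as an interferon readout, had 0.148 CPM in its highest group mean.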
